A study of Mus musculus with 12 samples.

Results

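The genotype effect of an intestinal Cftr deletion was compared between small intestine and colon, as the difference between mutant and wild type in small intestine minus the same difference in colon. That difference of differences is called the interaction here. It is on the log2 scale, and a negative value means that the mutant's level relative to wild type was lower in small intestine than in colon. Probes were described where the wild-type mean was over 8.2 in both tissues, so that a transcript had room to fall in either. Probes were thus selected on the wild-type means, which also enter the contrast, while the mutant arrays played no part in the choice. The rule kept 8488 probes of the 22880 that rose above background and of the 45281 on the array, which stand for 5611 of 19057 named genes. Another 1010 of the 8488 probes had no single gene symbol.

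The 12 arrays are 3 from each of 4 groups: small intestine of mutant mice, small intestine of wild-type mice, colon of mutant mice and colon of wild-type mice. Mutant mice are labelled Apc+/+ Cftrfl/fl-Villin-Cre, with floxed Cftr cut by a Cre recombinase under the Villin promoter, which is active in intestinal epithelium and not in stroma. Wild-type mice are labelled Apc+/+ Cftr+/+-Villin-Cre, which gives them the Cre as well, and all were C57BL/6 at 3 months. The design text calls the mutants Apc and Cftr deficient, whereas the genotype field gives intact Apc for all 12 arrays and was followed. The small-intestinal RNA came from mid-duodenum without its villi but with stroma and other cells, and the colonic RNA from epithelium detached from the distal colon, although a protocol field has whole colon. Tissue and preparation therefore cannot be told apart in the interaction. Mice gave both tissues, but the labels tie no array number to a mouse, and no label speaks of separate RNA preparations, so a p-value here sets a difference against array-to-array spread, which may be technical. In bulk RNA, fewer cells of a type and less RNA per cell cannot be told apart.

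Cftr is the chloride and bicarbonate channel of the apical membrane of crypt and villus cells, and it drives the fluid secretion that hydrates mucus. Duodenal epithelium also carries a large battery of drug-metabolising and retinoid enzymes for compounds taken up from food, while colonic epithelium is dominated by goblet cells and by colonocytes that burn short-chain fatty acids. The epithelial programmes that both tissues express at a measurable level are those for which the genotype effect could be set side by side.

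The tissue labels were borne out by most of their defining markers. Apoa4, an apolipoprotein of absorptive cells, averaged 14.62 and 14.66 in small intestine of mutant and wild-type mice and 7.92 and 7.81 in their colon, and Car1, a colonic carbonic anhydrase, averaged 7.89 and 7.75 in small intestine against 14.63 and 14.56 in colon. The probes for Fabp1 and Fabp2 lay at background on all 12 arrays, and those for Epcam, a pan-epithelial adhesion protein, near the limit on every group. Smooth-muscle Myh11 averaged 10.27 and 10.39 in small intestine of mutant and wild-type mice and was at background on all 6 colon arrays. The mean of 20 pancreatic acinar markers was 10.36 and 11.47 in small-intestinal mutants 1 and 2 and 11.61 in small-intestinal wild type 2, against 8.92 to 9.25 on the other 9 arrays. Colon mutant 1 lay closer to colon wild type 1 than any other pair of colon arrays did, including pairs of the same genotype. The Cftr probe is not among the 8488, and since nothing used here places it inside or outside the floxed segment, it checks no label. Cftr read 8.12, 8.11 and 8.30 in small-intestinal mutants against 8.28, 8.2 and 8.2 in wild type, and 7.94, 8.21 and 8.19 in colon mutants against 8.13, 7.95 and 7.97 in wild type. The genotypes overlapped in both tissues, and the interaction of Cftr was −0.14 ± 0.11 (SE).

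No probe passed an adjusted p of 0.05 for the interaction. Among the negative interactions with small p-values were enzymes of detoxification and retinoid metabolism such as Aldh1a1, Gstm1 and Retsat, which were lower in small-intestinal mutants with overlapping genotypes in colon, and Serinc1, which differed in colon. Among the positive ones were galectin-3, the ketone-body enzyme Oxct1 and the EGF receptor inhibitor Errfi1, which were higher in small-intestinal mutants, and Ppp2r1a, which differed in opposite directions in the tissues. By size alone, the protease inhibitor Slpi (−2.09) and haemoglobin genes were the most negative and the gasdermin Gsdmc2 (1.87) the most positive. In the limma fit, 0 of 22880 probes were called, 0% of those tested, and the smallest adjusted p was 0.203 over all and 0.243 among the 8488. At an unadjusted p under 0.05 stood 562 of the 8488 (6.62%), 313 of them higher (3.69%) and 249 lower (2.93%), beside 1273 of all probes tested (5.56%), of which higher ones were 2.43% and lower ones 3.13%. Under 0.01 stood 153 of the 8488 (1.8%), beside 1.45% of all probes tested.

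The parts of the interaction differed in their own calls. In small intestine 42 of the 8488 probes passed an adjusted p of 0.05 in the same limma fit, 21 higher and 21 lower in mutants (0.495%), beside 99 of all probes tested (0.433%), 28 higher (0.122%) and 71 lower (0.31%). At an unadjusted p under 0.05 stood 894 of the 8488 (10.5%), beside 7.42%. In colon 0 probes passed, 0% of those tested, with a smallest adjusted p of 0.387, and 501 of the 8488 (5.9%) stood at an unadjusted p under 0.05 beside 5.15% of all probes tested. Genotypes did not overlap in small intestine for 14.1% of the 8488 probes, beside 12.9% of all tested, and in colon for 7.83%, beside 8.98%. The small-intestinal calls rested on single arrays: without small-intestinal wild type 1, or without wild type 3, 0 probes passed. These arrays lay closer to each other than any other pair of small-intestinal arrays did (SD of the difference 0.077 over all probes). With them averaged, a choice made after seeing the data, 0 probes passed as well. For the 42 probes the median size of the small-intestinal difference was 0.55, and their colonic difference in the same direction had a median of 0.03, with a range of −0.27 to 0.25. These probes were picked by their small-intestinal difference, which favours a larger size there than in colon. The sign was the same in both tissues for 29 of the 42, and 4 had an unadjusted p under 0.05 in colon. That the difference was called in small intestine and not in colon does not show that the tissues differ, since the interaction itself, which tests this, passed for none.

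**Figure D1:**
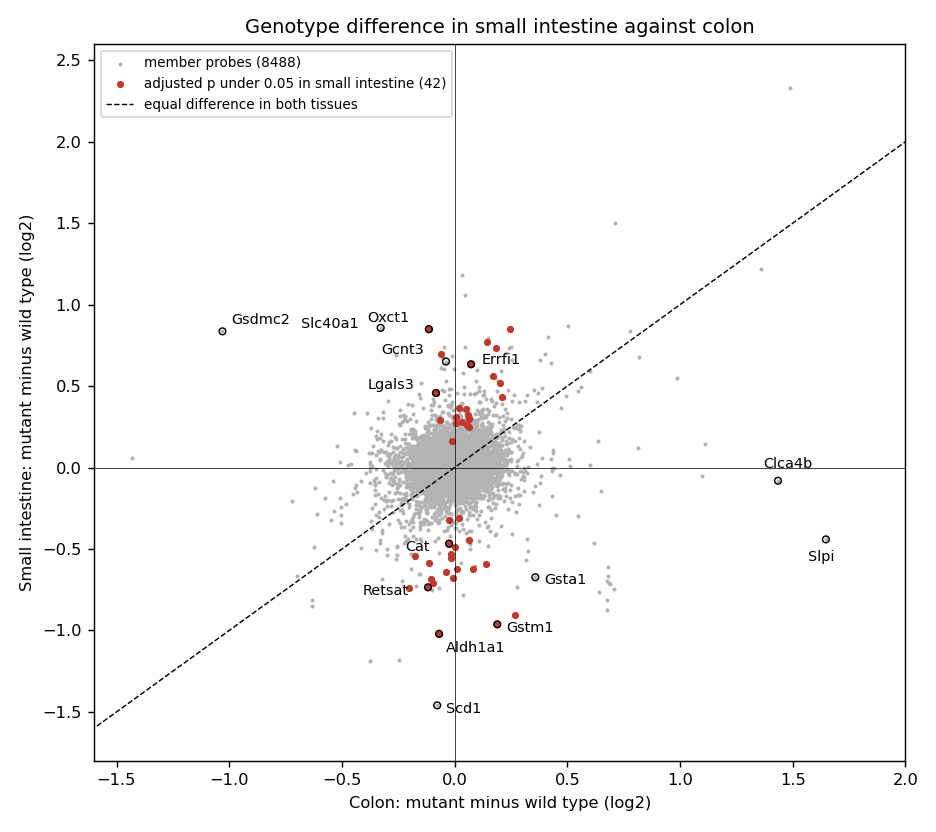
Mutant minus wild-type difference of each of the 8488 probes in small intestine (vertical axis, log2) against colon (horizontal axis, log2), with the 42 probes called in small intestine in red and the dashed line where both differences are equal. The red points, picked by their small-intestinal difference, spread along the vertical axis. They stay within 0.27 of 0 in colon, whereas Slpi and Clca4b lie far to the right.

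Over the 8488 probes the interaction had a median of 0.01, 5th and 95th percentiles of −0.21 and 0.26 and an SD of 0.169, and the median over all probes tested was 0.00250. The genotype difference had an SD of 0.142 in small intestine and 0.118 in colon. Across probes, which are not independent replicates and share arrays and normalization, Pearson's r between the differences was 0.159 and Spearman's rho 0.112, and 53.0% had the same sign in both tissues. The interaction was over 0.5 in size for 133 probes, 63 higher and 70 lower, and over 1 for 23, of which 5 were higher and 18 lower. Of the 562 probes at an unadjusted p under 0.05, 386 had the larger difference in small intestine and 176 in colon. For 1109 genes with a pair of probes among the 8488, the interactions of the pair correlated at 0.591 and had the same sign in 65.6%. The lowest qualifying wild-type mean was 8.20011 and the highest that failed 8.19999, and the 100 probes nearest the limit had a median interaction of 0.02 (SD 0.210) inside it and 0.02 (SD 0.128) outside.

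Xenobiotic and glutathione enzymes, which modify and conjugate reactive compounds, had mostly negative interactions. Of 58 listed genes 54 were on the array, 48 were above background and 38 had a wild-type mean over 8.2 in both tissues. Of those 38, 30 had a negative interaction, 14 were lower and 1 higher at an unadjusted p under 0.05, and the median was −0.24, with a median difference of −0.29 in small intestine and 0.01 in colon. Over all 5611 genes 2953 had a positive interaction, 6.93% stood at an unadjusted p under 0.05 and the median was 0.01. None of the 38 passed the adjusted test of the interaction. In small intestine 6 fell and 1 rose in the limma fit at an adjusted p under 0.05. With each array left out in turn the list's median ran from −0.29 to −0.18, and 11 to 16 genes were lower at an unadjusted p under 0.05.

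Aldh1a1, a dehydrogenase that makes retinoic acid from retinaldehyde, had the smallest p of this list. Its level was 9.53, 9.999 and 9.72 in small-intestinal mutants against 10.81, 10.88 and 10.63 in wild type, and 9.69, 9.75 and 9.52 in colon mutants against 9.60, 9.71 and 9.84 in wild type. Every small-intestinal mutant lay below every wild type, and the mutants there reached the level of colon, where the genotypes overlapped. Its level fell by 1.02 on the log2 scale in small intestine (adjusted p = 0.0145 in limma) with a difference of −0.07 in colon, an interaction of −0.95 ± 0.16 (SE, adjusted p = 0.250 in limma). Without small-intestinal mutant 2 the interaction was −1.08, with an adjusted p of 0.0400. Its neighbour in sequence Aldh1a7, whose probe may share signal with it, had an interaction of −0.51 ± 0.08 (SE), and −1.06 on a log2 scale above the array's floor, since its values of 8.27 to 9.06 lie near that floor.

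**Figure D2:**
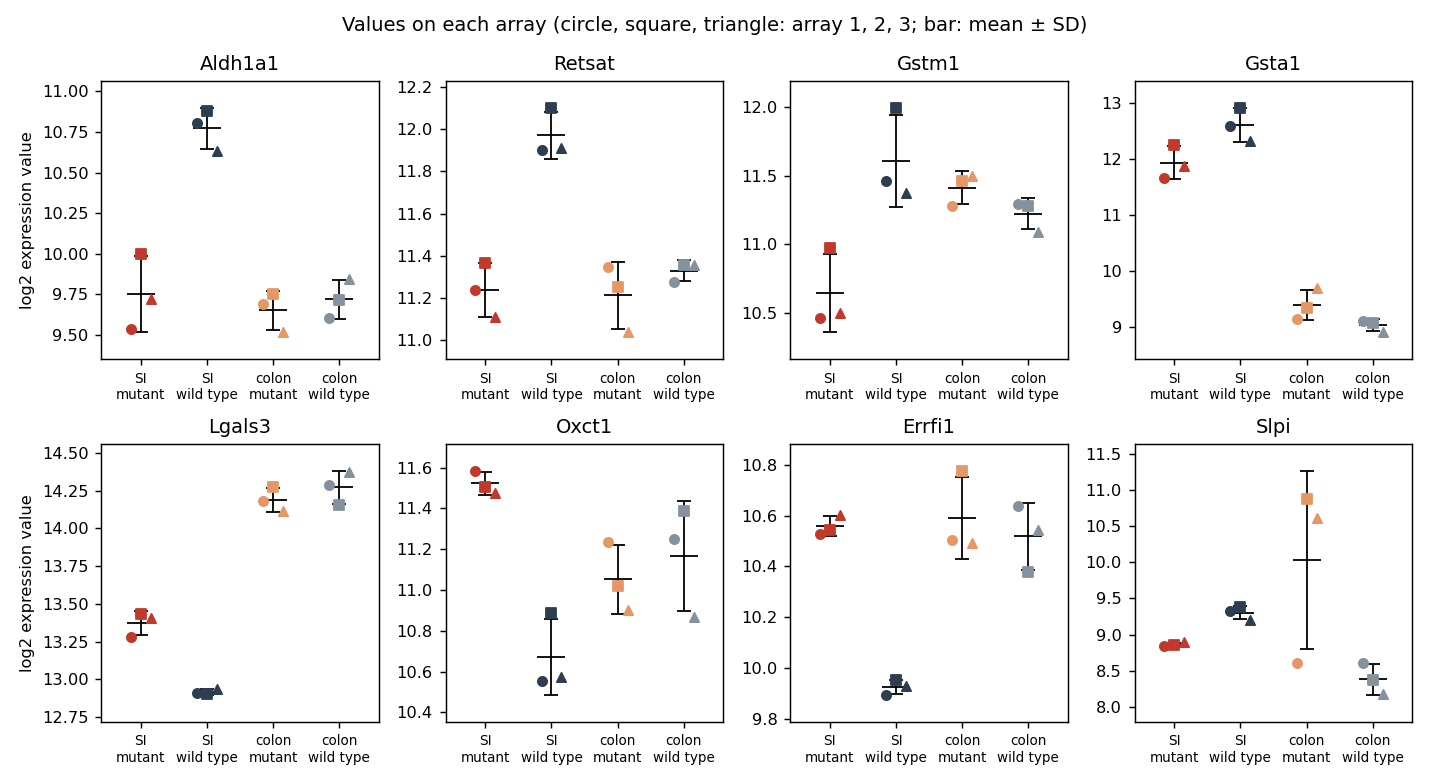
Log2 value of 8 genes on each array, with small intestine left of colon and mutant left of wild type in each tissue, points for arrays and bars for mean ± SD (n = 3). Aldh1a1, Retsat and Gstm1 separate by genotype in small intestine and overlap or nearly overlap in colon, Gsta1 separates in opposite directions, and Slpi in colon rests on 2 of 3 mutant arrays.

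Among the mu-class glutathione transferases, Gstm1 read 10.46, 10.97 and 10.50 in small-intestinal mutants against 11.46, 11.99 and 11.37 in wild type, and 11.28, 11.46 and 11.50 in colon mutants against 11.30, 11.28 and 11.09 in wild type. Small-intestinal mutants were all below wild type, and the colonic groups overlapped. The small-intestinal level fell by 0.96 (adjusted p = 0.0458 in limma), the colonic difference was 0.19 and the interaction −1.15 ± 0.24 (SE). Gstm2 fell by 0.59 in small intestine and had an interaction of −0.73 ± 0.15 (SE), and its other probes gave −0.70 and −0.56. Gstm4 fell by 0.53 in small intestine with an interaction of −0.51, and its colonic means of 8.45 and 8.47 lie near the array's floor. These genes are close copies of each other, so their probes may share signal.

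The alpha-class transferase Gsta1 differed in opposite directions in the tissues, with no call in either. Its level was 11.66, 12.25 and 11.87 in small-intestinal mutants against 12.59, 12.91 and 12.31 in wild type, and 9.15, 9.33 and 9.69 in colon mutants against 9.12, 9.07 and 8.91 in wild type. Mutants lay below wild type in small intestine and above it in colon, with no overlap in either. The interaction was −1.03 ± 0.26 (SE, adjusted p = 0.517 in limma), and the gene's other probes gave −0.88 and −0.84. Its close copy Gsta2 had −1.01, and Gsta3 −0.84, of which the colonic part was 0.55. Opposite directions with no overlap in either tissue were found for 32 of the 8488 probes (0.377%), beside 0.49% of all probes tested, and one direction with no overlap for 71 (0.836%), beside 0.726%.

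Other enzymes of the list differed in their layout. Cat, the catalase that removes hydrogen peroxide, was 9.04, 9.0 and 8.84 in small-intestinal mutants against 9.49, 9.38 and 9.41 in wild type, and 8.41, 8.37 and 8.41 in colon mutants against 8.54, 8.37 and 8.35 in wild type. It fell by 0.47 in small intestine, where the groups did not overlap, and its interaction was −0.44 ± 0.09 (SE), or −0.67 above the floor. Mgst1, a membrane-bound glutathione transferase, had 11.68, 11.99 and 11.81 in small-intestinal mutants against 12.17, 12.15 and 12.24 in wild type, and 12.03, 12.00 and 11.80 in colon mutants against 11.89, 11.66 and 11.65 in wild type. Only the small-intestinal groups of Mgst1 were apart, with an interaction of −0.57 ± 0.13 (SE) and no call in either tissue. Ugt2b36, a glucuronosyltransferase, fell by 0.74 in small intestine with a colonic difference of −0.20. Its colonic means, 8.39 in mutants and 8.59 in wild type, lie near the floor. Gpx2, the glutathione peroxidase of the gut lining, ran the other way: it rose in small intestine, by 0.85 (adjusted p = 0.0254 in limma), with 0.25 in colon and an interaction of 0.60 ± 0.18 (SE).

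**Figure D3:**
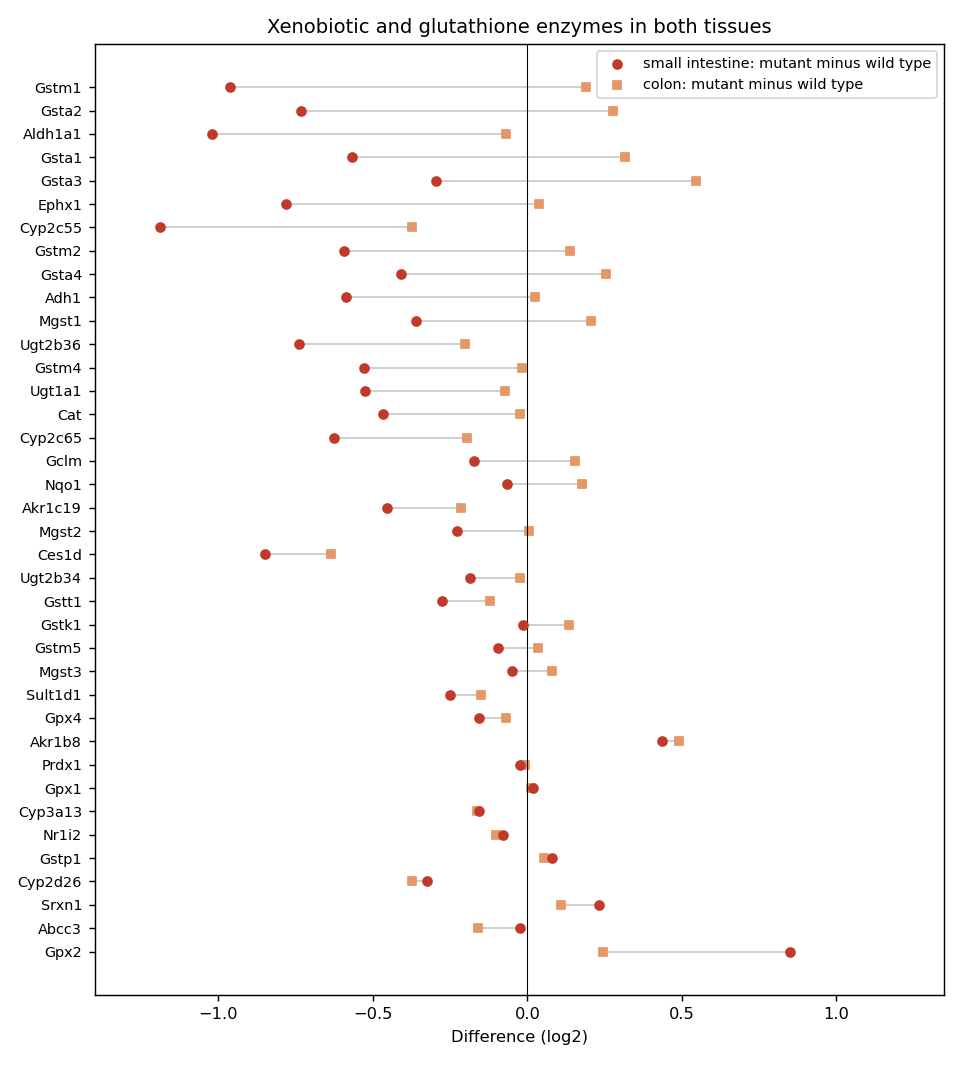
Mutant minus wild-type difference (log2) of the 38 xenobiotic and glutathione genes in small intestine (red circles) and colon (orange squares), joined per gene and ordered by the interaction, with 1 probe per gene. Small-intestinal points lie to the left of the colonic ones for 30 genes, and Gpx2 has the largest gap in the other direction.

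In small intestine the mean of absorptive enterocyte markers was lower in mutants, as was the mean of this group. The mean of the 48 xenobiotic genes above background was 10.53 to 10.69 in small-intestinal mutants and 10.85 to 11.02 in wild type, and the mean of 22 enterocyte markers was 11.34 to 11.39 in small-intestinal mutants and 11.42 to 11.56 in wild type, neither with overlap. In colon the xenobiotic mean was 10.26 to 10.34 in mutants and 10.28 to 10.30 in wild type. Only 6 enterocyte markers had a wild-type mean over 8.2 in both tissues. Of these 5 had a positive interaction, with a median of 0.05. Their median difference was −0.03 in small intestine, where 2 were above 0, and −0.10 in colon. The part of enterocyte content in the result was not tested. Without the 3 small-intestinal arrays high in acinar markers, a choice made after seeing the data that leaves 1 mutant and 2 wild-type arrays there, 33 of the 38 genes had a negative interaction, the median was −0.21 and 4 passed the adjusted test. The lone mutant is then assumed to vary like the other groups.

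Retinoid metabolism overlapped this list through Aldh1a1 and Adh1. Of 34 listed genes 10 were measured in both tissues, 7 with a negative interaction, 3 of them at an unadjusted p under 0.05, and the median was −0.17, with a median difference of −0.02 in small intestine and −0.05 in colon. Over all 5611 genes 2953 had a positive interaction and 6.93% stood at an unadjusted p under 0.05. The 3 genes were Aldh1a1 and Adh1, already counted above, and Retsat. Retsat, which saturates retinol, read 11.24, 11.36 and 11.11 in small-intestinal mutants against 11.90, 12.10 and 11.91 in wild type, and 11.35, 11.25 and 11.04 in colon mutants against 11.27, 11.36 and 11.36 in wild type. It fell by 0.74 in small intestine (adjusted p = 0.0145 in limma), where the groups were well apart, and the colonic groups overlapped. Its interaction was −0.62 ± 0.12 (SE). Rdh9, of the retinol dehydrogenase family but outside the list, had 9.21, 8.74 and 9.01 in small-intestinal mutants against 9.22, 9.34 and 9.21 in wild type, and 8.74, 8.97 and 9.09 in colon mutants against 8.70, 8.58 and 8.70 in wild type. It was below wild type in one tissue and above it in the other, by narrow margins, with an interaction of −0.55 ± 0.16 (SE), or −0.96 above the floor.

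The promoters of 5 of these genes, which were lower in small-intestinal mutants, are printed. The genes were picked by hand and are not the full lead of the group: Gstm2, whose interaction had a smaller p than that of Gstm1, is not among them. The sequences are from RefSeq, GRCm38.p6, from 250 bases before to 50 after the annotated start. They run 5′ to 3′ on the gene's strand, with a match to a searched motif in capitals. Aldh1a1 lies at chr19:20492333-20492632 on the plus strand and Retsat at chr6:72598352-72598651 on the plus strand, each with the AP-1 letters TGANTCA, whose first base is at −57 from the start in Aldh1a1 and at −102 in Retsat. Mgst1 lies at chr6:138140277-138140576 on the plus strand, with the antioxidant response core TGACNNNGC read on the opposite strand. Gstm1 lies at chr3:108017769-108018068 and Cat at chr2:103485104-103485403, both on the minus strand, each with the nuclear receptor half-site AGGTCA.
Aldh1a1: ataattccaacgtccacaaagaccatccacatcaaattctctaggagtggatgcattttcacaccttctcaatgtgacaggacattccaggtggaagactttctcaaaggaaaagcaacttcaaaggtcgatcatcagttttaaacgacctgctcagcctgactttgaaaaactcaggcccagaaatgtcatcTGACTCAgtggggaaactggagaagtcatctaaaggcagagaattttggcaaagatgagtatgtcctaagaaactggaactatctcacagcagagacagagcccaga
Retsat: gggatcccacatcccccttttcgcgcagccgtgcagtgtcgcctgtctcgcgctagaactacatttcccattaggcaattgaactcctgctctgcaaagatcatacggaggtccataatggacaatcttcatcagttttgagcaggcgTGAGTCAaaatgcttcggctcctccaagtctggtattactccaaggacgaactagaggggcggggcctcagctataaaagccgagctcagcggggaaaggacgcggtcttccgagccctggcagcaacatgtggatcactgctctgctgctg
Mgst1: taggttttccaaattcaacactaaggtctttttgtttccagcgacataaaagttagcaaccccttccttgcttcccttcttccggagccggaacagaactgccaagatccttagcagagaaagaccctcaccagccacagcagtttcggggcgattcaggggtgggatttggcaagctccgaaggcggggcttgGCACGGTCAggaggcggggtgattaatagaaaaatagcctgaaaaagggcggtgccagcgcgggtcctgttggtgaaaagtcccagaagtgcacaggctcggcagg
Gstm1: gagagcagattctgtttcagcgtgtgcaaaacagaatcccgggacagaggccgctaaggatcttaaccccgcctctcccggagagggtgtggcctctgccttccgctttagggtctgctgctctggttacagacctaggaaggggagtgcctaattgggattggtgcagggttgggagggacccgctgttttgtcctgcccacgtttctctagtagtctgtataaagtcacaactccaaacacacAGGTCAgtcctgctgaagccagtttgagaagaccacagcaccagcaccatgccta
Cat: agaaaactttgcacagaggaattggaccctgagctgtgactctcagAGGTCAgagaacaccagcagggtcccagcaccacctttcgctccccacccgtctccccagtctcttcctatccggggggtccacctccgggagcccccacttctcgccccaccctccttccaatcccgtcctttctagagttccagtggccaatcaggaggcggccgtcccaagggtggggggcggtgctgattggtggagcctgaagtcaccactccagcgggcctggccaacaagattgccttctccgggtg

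Both strands were searched, and each printed window held 1 match, so no motifs overlapped. Only windows with a match were kept, so a match in each printed window was set by the choice. The window of Errfi1, which rose in small intestine, also held AGGTCA. Of the 14 xenobiotic genes that were lower at an unadjusted p under 0.05, 13 had a promoter in the table, of which 2 held TGACNNNGC (Mgst1 and Gclm), 1 held TGANTCA (Aldh1a1) and 3 held AGGTCA (Gstm1, Ugt2b36 and Cat). Over 32851 mouse promoters of the same length the shares were 12.39%, 7.81% and 16.26%. A gene was counted if any of its promoters held the motif, whereas these shares count single promoters, so the figures are not fully alike. A match describes letters in the window and is no evidence of binding.

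Further enzymes and regulators made up the leading negative interactions. Cyp4v3, a fatty acid hydroxylase, was 11.61, 11.48 and 11.36 in small-intestinal mutants against 12.05, 12.06 and 12.01 in wild type, and 8.32, 8.43 and 8.28 in colon mutants against 8.25, 8.38 and 8.44 in wild type. It fell by 0.56 in small intestine, overlapped in colon and had an interaction of −0.54 ± 0.10 (SE). Its colonic values lie near the array's floor, which limits the difference that can show there. Hsd17b4, an enzyme of peroxisomal beta-oxidation, fell by 0.49 in small intestine with an interaction of −0.49 ± 0.11 (SE), and Maob, which oxidises monoamines, fell by 0.62 with −0.63 ± 0.14 (SE). Ddc, the decarboxylase that makes serotonin and dopamine, fell by 0.31 with an interaction of −0.33, whereas its other probe gave −0.22. Mxd1, a partner of Max that opposes Myc, fell by 0.54 in small intestine and was −0.18 in colon, with an interaction of −0.37 ± 0.08 (SE). Among fatty acid oxidation genes 16 of 24 had a negative interaction, 4 were lower and 2 higher at an unadjusted p under 0.05, and the median was −0.08. Of all 5611 genes 2953 had a positive interaction and 6.93% stood at an unadjusted p under 0.05. Acot1, an acyl-CoA thioesterase, led the lower ones of the fatty acid oxidation list with −0.60.

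For a second kind of negative interaction the larger difference was in colon. Serinc1, a membrane protein of the serine incorporator family, read 9.81, 9.80 and 9.70 in small-intestinal mutants against 9.85, 9.78 and 9.81 in wild type, and 9.64, 9.61 and 9.69 in colon mutants against 9.36, 9.41 and 9.34 in wild type. The small-intestinal groups overlapped and every colon mutant was above every colon wild type. Its colonic difference was 0.28 and its interaction −0.32 ± 0.05 (SE, adjusted p = 0.243 in limma), whereas its other, brighter probe gave a colonic difference of 0.07 and an interaction of −0.08. Slpi, a secreted protease inhibitor of mucosal surfaces, had the largest named interaction, −2.09 ± 0.64 (SE, adjusted p = 0.679 in limma). It read 8.85, 8.85 and 8.89 in small-intestinal mutants against 9.33, 9.39 and 9.20 in wild type, and 8.61, 10.87 and 10.61 in colon mutants against 8.61, 8.37 and 8.18 in wild type. Colon mutants 2 and 3 were high and colon mutant 1 was at the level of colon wild type 1. Without colon mutant 1 the interaction was −2.80, with an adjusted p of 4.93e-04 in limma, and without mutant 2 it was −1.67. On the scale above the floor it was −3.33.

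Clca4b, of the family of calcium-activated chloride channel regulators, showed a similar spread. It was 13.84, 13.17 and 13.79 in small-intestinal mutants against 13.59, 13.85 and 13.61 in wild type, and 8.92, 9.88 and 11.06 in colon mutants against 8.85, 8.31 and 8.41 in wild type. Its interaction of −1.52 ± 0.60 (SE) was −0.96 without colon mutant 3. The haemoglobin genes Hbb-bt, Hbb-bs and Hba-a1 gave −1.55, −1.49 and −1.45. The mean of 6 erythrocyte markers was 9.07 to 9.43 in small-intestinal mutants against 8.95 to 9.94 in wild type, and 9.37 to 10.63 in colon mutants against 9.31 to 9.82 in wild type. Colon mutant 2 held the highest erythrocyte value, and without it the Hba-a1 interaction was −0.73. Colon mutant 2 was also the highest colon array for 13 Paneth markers, at 10.26 against 8.68 to 9.15 on the other 5 colon arrays. Of 5 Paneth markers measured in both tissues, 2 had a positive and 3 a negative interaction, with a median of −0.51. At an unadjusted p under 0.05 stood 0 of them. Lyz1, the Paneth lysozyme, had an interaction of −0.97 ± 0.83 (SE). Its mean was 14.74 in small-intestinal mutants against 14.59 in wild type, and 9.69 in colon mutants against 8.58 in wild type.

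**Figure D4:**
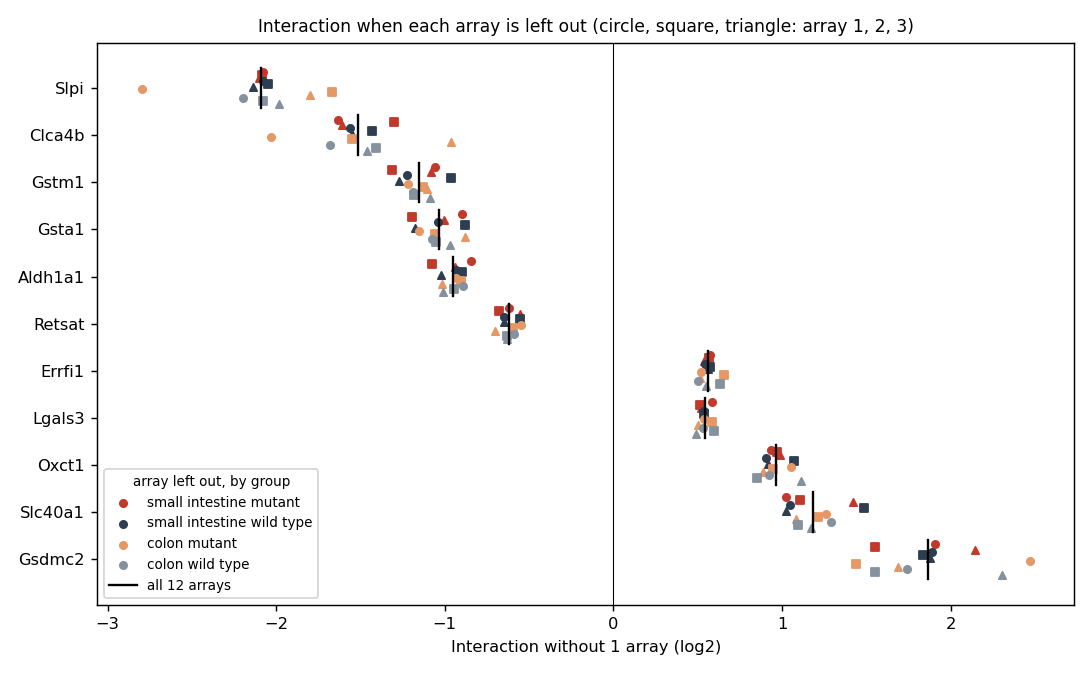
Interaction (log2, horizontal axis) of 11 genes with each array left out in turn, coloured by the group of the array left out, with a line at the value from all 12 arrays. Values for Aldh1a1, Retsat, Errfi1 and Lgals3 stay close to the line, whereas Slpi runs from −2.80 to −1.67 and Gsdmc2 from 1.44 to 2.47.

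Among positive interactions Lgals3, which encodes galectin-3, a sugar-binding protein of surface epithelium, had the smallest p. Its level was 13.28, 13.43 and 13.41 in small-intestinal mutants against 12.91, 12.90 and 12.94 in wild type, and 14.18, 14.27 and 14.11 in colon mutants against 14.29, 14.16 and 14.37 in wild type. Small-intestinal mutants were all above wild type while the colonic groups overlapped at a higher level. Lgals3 rose in small intestine by 0.46 (adjusted p = 0.0178 in limma), with −0.08 in colon and an interaction of 0.54 ± 0.09 (SE, adjusted p = 0.243 in limma). Mpi, which interconverts fructose and mannose phosphates for glycosylation, rose by 0.32 in small intestine with an interaction of 0.26 ± 0.04 (SE).

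Oxct1, the enzyme that lets cells use ketone bodies, was covered by a pair of probes. The first read 11.58, 11.50 and 11.48 in small-intestinal mutants against 10.56, 10.89 and 10.57 in wild type, and 11.23, 11.02 and 10.90 in colon mutants against 11.25, 11.39 and 10.87 in wild type. The small-intestinal groups were apart and the colonic ones overlapped over a wide range. Both probes rose in small intestine, by 0.85 and 0.70 (adjusted p = 0.0327 and 0.0344 in limma), and gave interactions of 0.96 ± 0.19 and 0.76 ± 0.16 (SE). In the fatty acid oxidation list, Ppard, a nuclear receptor for fatty acids, was also higher, with an interaction of 0.38 ± 0.15 (SE, adjusted p = 0.842 in limma), whereas 16 of the 24 genes had negative interactions.

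Errfi1, a feedback inhibitor of the EGF receptor, was 10.53, 10.55 and 10.60 in small-intestinal mutants against 9.89, 9.95 and 9.93 in wild type, and 10.50, 10.78 and 10.49 in colon mutants against 10.64, 10.38 and 10.54 in wild type. The small-intestinal mutants reached the colonic level, at which the genotypes overlapped. Errfi1 rose by 0.63 in small intestine (adjusted p = 0.0145 in limma), with an interaction of 0.56 ± 0.11 (SE). Of the other 12 genes of EGF receptor and MAP kinase feedback, 0 stood at an unadjusted p under 0.05. Of 17 immediate early genes 12 had a positive interaction, beside 2953 of all 5611 genes. The list held 1 gene at an unadjusted p under 0.05, beside 6.93% of all genes. Its median of 0.20 ran from 0.03 to 0.34 as arrays were left out. Fos, the transcription factor, had 0.49 ± 0.31 (SE).

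No goblet or mucin gene passed the adjusted test of the interaction. Of 13 goblet markers 11 had a positive interaction, beside 2953 of all 5611 genes. At an unadjusted p under 0.05 stood 2 of these markers, beside 6.93% of all genes. The goblet median was 0.16, with a range of 0.04 to 0.25 as arrays were left out, when 9 to 12 markers were positive, and 8 were positive with the arrays centred on the 8488 probes. Muc2, the main gel-forming mucin, read 13.74, 13.54 and 13.56 in small-intestinal mutants against 13.45, 13.36 and 13.35 in wild type, and 14.65, 14.63 and 14.69 in colon mutants against 14.72, 14.69 and 14.70 in wild type. The small-intestinal groups were apart, by a gap of less than the spread within mutants, and the interaction was 0.27 ± 0.07 (SE, adjusted p = 0.538 in limma). Of 21 genes of mucin glycosylation and sulfation 14 were positive and 3 were higher at an unadjusted p under 0.05, with a median of 0.07, and 12 to 17 were positive as arrays were left out. Gcnt3, which branches mucin sugar chains, was 11.32, 11.36 and 11.25 in small-intestinal mutants against 10.54, 10.85 and 10.58 in wild type, and 12.36, 12.59 and 12.23 in colon mutants against 12.34, 12.29 and 12.67 in wild type. Its small-intestinal groups did not overlap, its interaction was 0.69 ± 0.17 (SE), and its small-intestinal difference had an adjusted p of 0.0559 in limma. Chst4, a sulfotransferase of mucin-type glycans, rose by 0.52 in small intestine with 0.20 in colon and an interaction of 0.32, and its other probe gave 0.08. The mean of 21 goblet markers was 9.94 to 10.04 in small-intestinal mutants against 9.83 to 9.85 in wild type, and 11.18 to 11.30 in colon mutants against 11.20 to 11.32 in wild type, and the part of goblet cell content was not tested. The mean of 12 pan-epithelial markers was 11.42 to 11.46 in small-intestinal mutants against 11.32 to 11.40 in wild type, and that of 20 stem cell markers 8.82 to 8.87 in small-intestinal mutants against 8.91 to 8.94 in wild type, both without overlap, and their part in the small-intestinal differences was not tested.

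**Figure D5:**
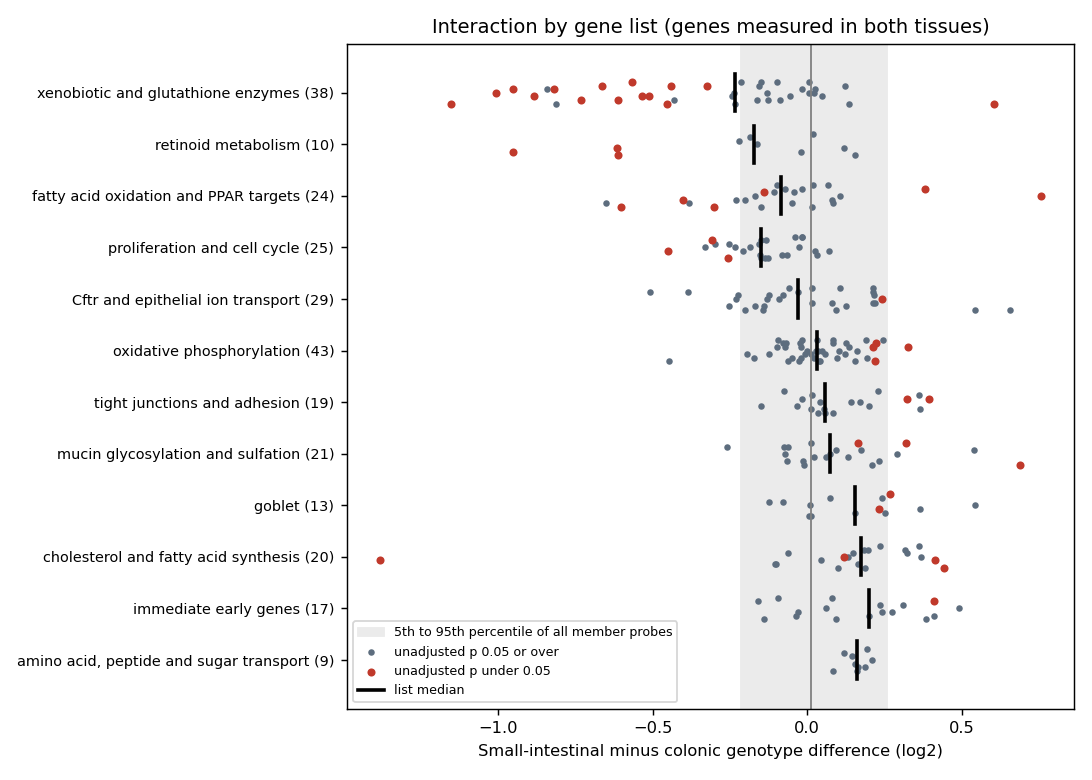
Interaction (log2) of each gene measured in both tissues in 12 gene lists, 1 point per gene, red where the unadjusted p was under 0.05, with a bar at each list's median and a band from the 5th to the 95th percentile of the 8488 probes. The xenobiotic list has 14 red points to the left of 0 and 1 to the right, and the cholesterol list lies to the right of 0 except for Scd1 and 3 others.

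Of 20 genes of cholesterol and fatty acid synthesis 16 had a positive interaction, beside 2953 of all 5611 genes, and the median was 0.17. At an unadjusted p under 0.05, 3 were higher and 1 lower, beside 6.93% of all genes in either direction. Hsd17b7, a late enzyme of cholesterol synthesis, was 10.15, 10.41 and 10.37 in small-intestinal mutants against 9.90, 9.80 and 9.87 in wild type, and 9.72, 9.83 and 9.56 in colon mutants against 9.77, 9.76 and 9.54 in wild type. The groups were apart in small intestine only, with an interaction of 0.44 ± 0.13 (SE), and Cyp51, which demethylates lanosterol, had 0.41 ± 0.14 (SE). Scd1, the desaturase that makes oleic acid, ran against the list with an interaction of −1.38 ± 0.46 (SE, adjusted p = 0.737 in limma). It read 7.91, 8.25 and 8.03 in small-intestinal mutants against 10.18, 8.56 and 9.84 in wild type, and 8.85, 8.52 and 8.89 in colon mutants against 8.90, 8.92 and 8.68 in wild type. Small-intestinal wild type 2 lay nearest the mutants, and without it the interaction was −1.87, with an adjusted p of 0.0116 in limma, or −2.97 above the floor with all arrays. The mean of 8 adipocyte markers was 8.46 to 8.66 in small-intestinal mutants and 8.70 to 9.24 in wild type, and their part in the Scd1 result was not tested. Only 2 adipocyte markers had a wild-type mean over 8.2 in both tissues, and 1 of them had a positive small-intestinal difference. The interaction was negative for these 2, with a median of −0.49. Among them, Lpl, the lipoprotein lipase, had an interaction of −0.94 ± 0.46 (SE).

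No gene of proliferation passed the adjusted test of the interaction. Of 25 measured in both tissues 22 had a negative interaction, and 17 to 24 did as arrays were left out, with 17 without small-intestinal mutant 1. At an unadjusted p under 0.05 stood 3, all lower, beside 6.93% of all 5611 genes, of which 2953 had a positive interaction. The list's median was −0.15, with a median difference of 0.02 in small intestine and of 0.14 in colon, where 22 of 25 were above 0. Cdk1, the mitotic kinase, had −0.31 ± 0.11 (SE), made up of −0.10 in small intestine and 0.21 in colon, and the centromere histone Cenpa had −0.45 ± 0.17 (SE). The median ran from −0.22 to −0.07 as arrays were left out, −0.07 without colon wild type 2, and no gene of the list was called in either tissue. The mean of the 36 proliferation genes above background overlapped between the genotypes in colon, at 9.0 to 9.04 in mutants against 8.87 to 9.03 in wild type. Of 43 genes of oxidative phosphorylation 26 were positive and 4 stood at an unadjusted p under 0.05, with a median of 0.03. Of 19 tight junction genes 15 were positive, and 11 to 17 as arrays were left out, with 2 at an unadjusted p under 0.05 and a median of 0.06, and without the acinar-high arrays the median was 0.01. All 9 measured transporters of amino acids, peptides and sugars were positive, with a median of 0.16, and none stood at an unadjusted p under 0.05.

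Signalling and iron genes completed the leading positive interactions. Ppp2r1a, the scaffold of protein phosphatase 2A, read 10.20, 10.11 and 10.12 in small-intestinal mutants against 10.02, 9.94 and 9.93 in wild type, and 10.81, 10.81 and 10.76 in colon mutants against 10.97, 10.90 and 10.90 in wild type. It was above wild type in small intestine and below it in colon on every array, with an interaction of 0.31 ± 0.05 (SE, adjusted p = 0.243 in limma). Map2k3, a kinase that activates p38, had the same layout with 0.24 ± 0.04 (SE). Uba6, a ubiquitin-activating enzyme, gave 0.38 ± 0.09 (SE) from its colonic part alone, at 8.64, 8.70 and 8.51 in colon mutants against 8.99, 9.05 and 8.93 in wild type, and 0.71 above the floor. Tmsb10, an actin-binding thymosin, rose by 0.77 in small intestine and had 0.63 ± 0.16 (SE), and H2-D1, a class I histocompatibility chain, rose by 0.26 and had 0.21 ± 0.05 (SE), while its other probe gave −0.09. Slc40a1, the iron exporter ferroportin, read 11.23, 11.06 and 10.43 in small-intestinal mutants against 9.77, 10.64 and 9.72 in wild type, and 12.29, 12.19 and 11.93 in colon mutants against 12.26, 12.64 and 12.49 in wild type. The groups overlapped in both tissues for Slc40a1, at an interaction of 1.19 ± 0.37 (SE). Gsdmc2, a gasdermin of gut epithelium, had the largest positive value, 1.87 ± 0.75 (SE), from 8.97, 9.68 and 8.49 in small-intestinal mutants against 8.25, 8.15 and 8.23 in wild type, and 12.34, 10.27 and 10.77 in colon mutants against 12.41, 12.79 and 11.28 in wild type. The pancreatic genes Sycn and Cela1 were also among the larger positive values, with 1.49 ± 1.04 and 0.95 ± 1.51 (SE). Without small-intestinal mutant 2 they were 0.91 and 0.13, and without small-intestinal wild type 2 they were 2.28 and 2.27. Both arrays were high in acinar markers. Of 6 acinar markers with a wild-type mean over 8.2 in both tissues, 4 were positive and 2 negative, with a median of 0.05.

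Of 29 genes of Cftr function and epithelial ion transport 14 were positive and 15 negative, and the median was −0.03. At an unadjusted p under 0.05 stood 1 gene, beside 6.93% of all 5611 genes. That gene was Fxyd3, a regulator of the sodium pump, with 0.24 ± 0.10 (SE). Slc26a3, the chloride and bicarbonate exchanger of the colon, had 0.21 ± 0.18 (SE), and Slc12a2, the basolateral chloride importer, −0.13 ± 0.15 (SE). Among Wnt and stem cell genes, Axin2 had 0.15 ± 0.15 (SE) and Ccnd1 0.18 ± 0.20 (SE, its other probes 0.01 and 0.26). Apc, Lgr5, Ascl2, Olfm4 and Myc did not reach a wild-type mean of 8.2 in both tissues. Their interactions were 0.08, 0.08, −0.10, −0.46 and −0.02.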

How the data were processed

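Gene expression was measured on Illumina mouse BeadChips, 12 arrays in 4 groups of 3. The authors deposited log2 values with nearly equal distributions (medians 7.756 to 7.757), which end in a floor near 7.70. The submitters' processing notes name limma, with no version. How background was handled is not given in the sources used. A table of 24 further columns, whose names match no sample's labels, was not used.

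The dim-probe limit, 7.78, is the mode of all values plus 3 mirrored SDs (SD 0.0276). Probes above it on at least 3 arrays were tested, 22880 of 45281. Of all probes 34885 had 1 gene symbol, 18 several and 10378 none, and 34807 matched by Entrez number. limma 3.58.1 (R 4.3.3) fitted a mean per group with 8 residual degrees of freedom plus a prior of 2.23. Two-sided p-values were adjusted over all 22880 probes (Benjamini-Hochberg). Values are given with the SD over arrays or the SE of the fit. The number of arrays limits the precision, and an exact test of 3 arrays against 3 cannot go below p = 0.1. "Above the floor" is log2 of the linear value minus the floor (at least 16 units). The fit was tested on simulated data.

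Probes and gene lists were chosen with earlier results of these data known. In a list, the qualifying probe with the highest mean stands for its gene. Named genes are the 15 smallest p and 5 largest interactions per direction, genes with opposite non-overlapping directions at an unadjusted p under 0.01, up to 4 per list and 11 genes of interest. Whether same-numbered arrays pair could not be told. Of 18 such pairs 3 correlated over 0.1 (range −0.27 to 0.26), and 2 of 6 within a genotype across tissues. Arrays with different numbers spread as widely, from −0.29 to 0.36, so these correlations cannot decide it. Alternatives covered filters, scales, normalization, weights, blocks and arrays left out.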

Additional observations from a re-analysis of the deposited data

Results flagged for a closer look

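For 24 genes with an unadjusted p under 0.01 for the interaction, every mutant array lay on one side of every wild-type array in small intestine and on the other side in colon. The difference between the tissues passed no adjusted test for any of them (limma), so it is given as a value. Without the limit on p, such opposite directions without overlap were found for 32 of the qualifying probes (0.377%) and for 0.49% of all probes tested.

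Negative interactions (log2) among them were −2.09 for the protease inhibitor Slpi, −1.03 for the glutathione transferase Gsta1, −0.55 for Rdh9, −0.49 for Ms4a10, −0.47 for the tubulin Tubb2b and −0.39 for Faah, which degrades fatty acid amides. Smaller ones were −0.37 for the peroxiredoxin Prdx4, −0.31 for Twsg1, −0.30 for Tmem176a, −0.30 for the peroxisomal protein Pxmp4, −0.28 for Cdc42ep3, −0.24 for the inflammatory caspase Casp4, −0.24 for the dipeptidase Pepd and −0.23 for the cytosolic isocitrate dehydrogenase Idh1. The other probes of Faah and Tubb2b gave −0.14 and −0.02.

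Positive interactions were 0.44 for Frrs1, 0.31 for Ppp2r1a, 0.30 for the translation factor Eif2s2, 0.29 for Yeats2, 0.28 for Pdxdc1 and 0.24 for Map2k3. Smaller ones were 0.22 for the complex III subunit Uqcrc1, 0.22 for the Golgi protein Golga2, 0.22 for Zkscan1 and 0.12 for Ubac2. The other Eif2s2 probe gave 0.15. The gaps between groups were often narrow. Prdx4 read 11.21, 11.17 and 11.15 in small-intestinal mutants against 11.26, 11.21 and 11.27 in wild type, and 11.17, 11.20 and 11.36 in colon mutants against 11.13, 10.84 and 10.86 in wild type. Idh1 read 11.54, 11.49 and 11.53 in small-intestinal mutants against 11.61, 11.62 and 11.59 in wild type, and 11.13, 11.14 and 11.14 in colon mutants against 11.10, 10.99 and 10.93 in wild type.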

How the results depend on the processing

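The 0 probes called for the interaction became 5 on the log2 scale above the floor, 4 with a variance trend and robust prior, and 0 to 21 as single arrays were left out, 21 without small-intestinal wild type 2. Chosen after seeing the data, leaving out the 3 acinar-high arrays gave 208 (31 higher, 177 lower, 26 of them qualifying), and leaving out colon wild type 1 and colon mutant 1 gave 7. The 99 small-intestinal calls became 57 with no dim-probe limit, 198 with array weights, 2 with small-intestinal arrays alone, 339 without the acinar-high arrays, 28 without colon wild type 1 and mutant 1, and 0 with small-intestinal wild type 1 and 3 averaged. They ran from 0 to 148 as single arrays were left out. The 0 colonic calls became 2 above the floor, 26 without colon wild type 1 and mutant 1, and 0 to 28 as single arrays were left out, 28 without colon mutant 1. With the replicate number as a block, although it is not known whether the numbers pair the arrays, there were 59 small-intestinal calls and 0 for the interaction. A block for each genotype and replicate number, which the labels tie to no mouse, also gave 0 for the interaction. A wild-type mean over 9 kept 4628 probes. The cause of these changes was not tested. Of 125 named genes none changed sign in 26 settings, and some values passed the adjusted test in an alternative. Most of the 125 were chosen on these same arrays for a small p or a large interaction. A stable sign was thus largely set by the choice, and list genes with weak interactions were not among them. The floor limits what dim probes can show.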
